A study of Mus musculus with 4 samples.

Results

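The 3' untranslated region (3' UTR) of an mRNA is the stretch after the stop codon, where RNA-binding proteins and microRNAs attach to set where an mRNA goes, how long it lasts and how much protein it gives. Brain transcripts are known for long 3' UTRs, many of them made by using a distal polyadenylation site. IMP2 (gene Igf2bp2) belongs to the IGF2BP family of RNA-binding proteins, which carry KH and RRM domains, bind mRNAs and take part in their transport, stability and translation. The clusters described here are stretches of long 3' UTRs where RNA tags recovered with IMP2 from the embryonic mouse brain piled up.

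HITS-CLIP, in which ultraviolet light joins a protein to the RNA it touches before immunoprecipitation and sequencing, had been done on IMP2 from untreated whole brains of Swiss Webster embryos at E14 (embryonic day 14). All 4 libraries are IMP2 immunoprecipitates from this strain, stage and tissue, with no genetic change named and no control immunoprecipitate or input among the samples analysed here. The labels do not say how many embryos went into each library, and the protocol names 1 mouse and 1 rabbit antibody against IMP2. A single list of clusters, each a stretch of overlapping CLIP tags, stands for the 4 libraries, so no value below has a replicate error. Cluster height is the authors' value and is taken as the count of tags piled up at the cluster's peak, and fold is their ratio of that height to a reference level left undefined in the header of the list. The depth behind a height is unknown because tag totals are not used here, and neither heights nor numbers of clusters are corrected for transcript abundance.

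A cluster was counted as lying in a long 3' UTR when the longest 3' UTR interval deposited for it spanned 4000 bases or more. This rule uses only the annotated length, not the height or the number of clusters. It took 463 of the 1721 clusters in 3' UTRs (26.9%, exact Clopper-Pearson 95% interval 24.8 to 29.1, counting error only) and 132 of the 729 genes with a 3' UTR cluster (18.1%). The whole list has 1828 clusters in 761 genes. None of the 463 clusters was assigned to more than 1 gene. All 836 lines of long intervals reach the annotated transcript end, so each interval is the last stretch of its transcript. The intervals look like single exon pieces, so where a 3' UTR has further exons upstream, its length, its number of clusters and the distance from the stop codon may be larger than given here. The start of the interval is the end nearest the coding sequence, and positions are counted from there to the midpoint of the cluster. Whether these intervals match the ends used in E14 brain was not tested. The closest genes inside the threshold were St8sia4, a polysialyltransferase gene (4000 bases), Rsbn1 (4008) and the RNA-binding protein gene Hnrnpa3 (4010), each with 1 cluster. The closest outside were the zinc finger gene Zfp266 (3996 bases, 8 clusters), the transcription factor gene Foxp2 (3956, 1 cluster) and Neto2, an auxiliary protein of kainate receptors (3948, 3 clusters).

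The long intervals had a median length of 4917 bases (interquartile range 4354 to 5879.5), and 14 genes had an interval of 8000 bases or more. Clusters were spread over these genes very unevenly. Of the 132 genes, 66 had a single cluster, 20 had 2, 20 had 3 or 4, 14 had 5 to 9 and 12 had 10 or more. The 12 genes at the top held 201 clusters, or 43.4% of the 463, in 10.2% of the summed interval length. Their intervals carried 2.68 clusters per kb, and those of the other 120 genes 0.398 per kb. The 12 were chosen by their number of clusters, so a higher density is built into the choice.

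Among the long 3' UTRs, the one with the most clusters was that of Dcx, which encodes doublecortin, a microtubule-associated protein of migrating neurons. Its interval lies on chromosome X at 140290385 to 140298093 (mm9, minus strand) and spans 7709 bases. It held 34 clusters, or 4.41 per kb, the highest density among the long 3' UTRs, and they covered 41.6% of it. They ran from 186.5 bases after the interval start to 72.5 bases before its end, and the longest stretch between neighbours was 478 bases. Heights went from 23 to 85 with a median of 38. The highest cluster lay 3131.5 bases from the start, and 5 clusters had a height of 60 or more, at distances from 947 to 6235 bases.

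Sox11, a transcription factor gene of newborn neurons, had 25 clusters in 6953 bases on chromosome 12 (28019133 to 28026085, minus strand). Together they covered 49.1% of the interval. The tall ones were many: 9 had a height of 60 or more, the largest number for any gene with a long 3' UTR, and the median was 49. They lay in separate places, with heights of 86 and 83 at 728 and 1220 bases from the start, 90, 87, 85 and 80 at 3597, 4005, 4152.5 and 4658 bases, and 81 at 5720 bases. The first 8 clusters ended with one at 2056 bases, followed by a stretch of 700 bases without any.

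Map1b, which encodes microtubule-associated protein 1B and is listed as Mtap1b, had 18 clusters in a shorter interval of 4342 bases (chromosome 13, 100191419 to 100195760, minus strand). They covered 75.1% of it, the highest share among the long 3' UTRs. The median height of 54.5 was above that of Dcx and Sox11, and 8 clusters reached 60 or more. The first lay across the interval start, with its midpoint 2 bases in and a height of 64, and the highest (90) was at 184.5 bases. A cluster of 533 bases, the widest in any long 3' UTR, had a height of 87 and lay 2939.5 bases from the start.

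Fzd3, whose product is a Frizzled receptor that growing axons require, had the same number of clusters as Sox11, 25, but in an interval of 10278 bases (chromosome 14, 65811278 to 65821555, minus strand). Its density was 2.43 per kb and its clusters covered 18.9% of the interval. No cluster reached 60: heights went from 18 to 55 with a median of 31. The height of 55 was reached at 5284 and again at 6854.5 bases, and the last 4 clusters, of height 27 to 49, lay from 8579.5 bases on. The farthest, at 9679.5 bases, was also the cluster farthest from the interval start in the whole set.

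Ccnd2, the cyclin D2 gene of dividing progenitors, had 17 clusters in 4626 bases on chromosome 6 (127075727 to 127080352, minus strand), at 3.67 per kb. The first lay 743.5 bases in, and the taller ones were grouped in the middle, with heights of 58 at 1752, 77 at 1988.5, 55 at 2493.5, 68 at 3010.5 and 59 at 3317 bases. The last, at 93.5 bases from the end, had a height of 35.

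**Figure D1:**
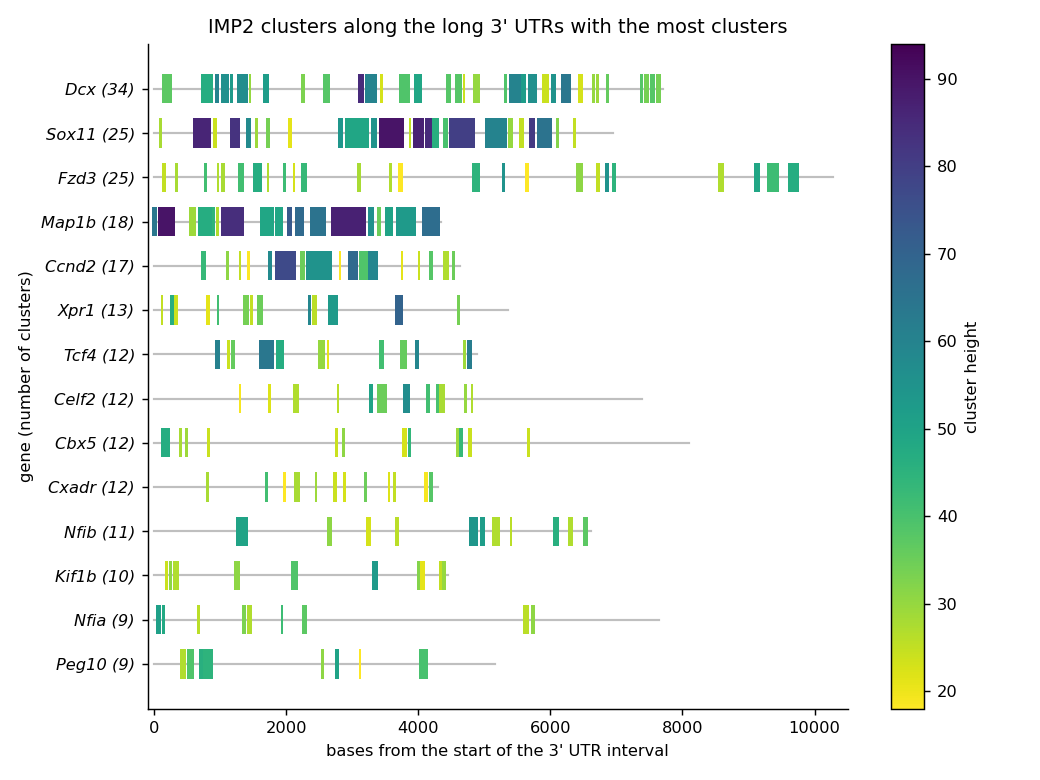
Clusters along the 14 long 3' UTRs with the most clusters; the x axis is the distance in bases from the start of the 3' UTR interval, each coloured box is a cluster drawn at its width, the colour is its height and the grey line is the interval. Clusters cover 75.1% of the interval in Map1b, 49.1% in Sox11 and 41.6% in Dcx, Fzd3 holds 25 clusters spread over 10278 bases, and Nfia has none for 3273 bases.

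Below these 5 genes came 7 others with 10 to 13 clusters. Xpr1, the phosphate exporter gene, had 13 in 5353 bases, and its highest (70) lay 3702.5 bases from the start. Tcf4, an E-protein transcription factor gene, had 12 in 4891 bases, of which 3 were of height 60 or more, the last of these at 4769.5 bases and so within the final 200 bases. Celf2, a regulator of splicing and mRNA decay, also had 12, in 7388 bases. All of its clusters lay between 1293.5 and 4817 bases, which left the last 2571 bases after the final midpoint without a cluster, and the highest was 57.

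Cbx5, which encodes heterochromatin protein 1 alpha, had 12 clusters in 8095 bases with its highest (47) near the start, at 168 bases. Cxadr, the adhesion receptor gene known from coxsackievirus and adenovirus entry, had 12 in 4299 bases, at 2.79 per kb, with a low median height of 26.5 and a maximum of 41. Nfib and Kif1b closed the group with 11 and 10. Nfib encodes a nuclear factor I transcription factor, and its tallest clusters (54 and 52) stood next to each other at 4834 and 4972.5 bases. Kif1b encodes a kinesin of axonal transport, and its clusters reached from 183.5 bases after the start to 60.5 bases before the end, with a maximum height of 53.

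Longer intervals did not always hold more clusters. Across the 132 genes, Pearson's r between interval length and number of clusters was 0.221 and Spearman's rho 0.253, given as a description of genes that come from the same list and differ in abundance. The 14 genes of 8000 bases or more had 70 clusters in all, or 0.524 per kb, and 37 of the 70 belonged to Fzd3 and Cbx5. Slc8a1, the sodium-calcium exchanger gene, had the longest interval, 15586 bases on chromosome 17 (81772445 to 81788030, minus strand), and 2 clusters. They lay side by side at 8136 and 8261.5 bases with heights of 42 and 34. Strbp, which encodes an RNA-binding protein, followed with 14162 bases and 2 clusters of height 20 and 22, at 32 and 3319.5 bases, so that the last 10842 bases held none. The glutamate transporter gene Slc1a2 had 6 clusters in 9250 bases, all low (20 to 27), and 5 of them lay past 4600 bases. The zinc finger gene Zfp871 had 4 in 8855 bases (highest 29), and the kinase gene Taok1 had 5 in 8705 bases (highest 41).

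The lowest densities were those of long 3' UTRs with 1 or 2 clusters. The bicarbonate transporter gene Slc4a8 had 1 cluster in 8340 bases, with a height of 44 and the highest fold in the set, 19.0. Zyg11b, a substrate receptor gene of a ubiquitin ligase, had 1 in 8249 bases with a height of 34, at 2552.5 bases. The transcription factor gene Tead1 had its only cluster (27) at 74 bases, with the rest of its 8145 bases empty. Faxc, listed as 6230409E13Rik, had 1 of height 22 in 7874 bases, and Slc8a1 was also among the lowest.

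**Figure D2:**
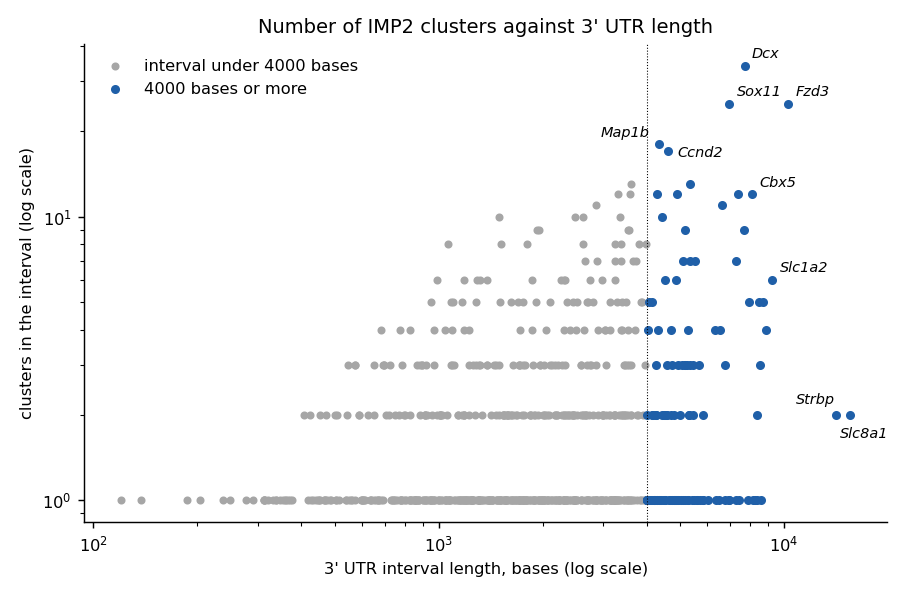
Number of clusters against the length of the 3' UTR interval in bases, both on log scales, with a point for each gene; blue points are intervals of 4000 bases or more and grey points shorter ones. Among intervals of 4000 to 8000 bases the number ranges from 1 to 34, and the 2 longest intervals, Slc8a1 and Strbp, hold 2 clusters each.

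Set against shorter 3' UTRs, long ones held more clusters per gene by the mean but fewer per base. By the median they held fewer per gene than intervals from 2000 to under 4000 bases. The mean number per gene was 1.5 for intervals under 1000 bases, 1.97 from 1000 to under 2000, 2.61 from 2000 to under 4000 and 3.51 from 4000, with medians of 1, 1, 2 and 1.5. Summed over genes, the densities of these classes were 2.28, 1.34, 0.912 and 0.631 clusters per kb. A gene enters the list only with at least 1 cluster, so the density of a short interval cannot be low. Counting only the clusters beyond the first of each gene, the densities were 0.762, 0.662, 0.562 and 0.451 per kb. Clusters covered 4.73% of the bases of long intervals and 8.0% of those under 4000 bases. A single cluster was present in 66 of 132 genes with a long interval (50%, 95% interval 41.2 to 58.8) and in 338 of 599 with a shorter one (56.4%, 52.4 to 60.4). Split by class, this share was 69.5% under 1000 bases, 59.1% from 1000 to under 2000 and 45.5% from 2000 to under 4000. The last of these is below the 50% of long intervals. Qk and Nsd2 (Whsc1 in the list) have clusters in both kinds of interval. None of these differences was tested, since the list gives no values for single libraries.

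The median cluster height had the same value in long and shorter 3' UTRs. The median was 30 in long ones (95% interval 29 to 31 by order statistics, interquartile range 25 to 41, full range 18 to 94) and 30 in the 1258 clusters of shorter ones (29 to 31, interquartile range 25 to 39, full range 18 to 107). A height of 60 or more was reached by 32 of 463 clusters (6.91%, 95% interval 4.78 to 9.62) and by 64 of 1258 (5.09%, 3.94 to 6.45). Within the shorter ones this share was 9.25% under 1000 bases, 5.19% from 1000 to under 2000 and 3.46% from 2000 to under 4000. The median fold was 5.48 against 5.43, and the median width 57 against 53.5 bases. The 32 tall clusters came from 10 genes, and Sox11, Map1b and Dcx held 22 of them.

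**Figure D3:**
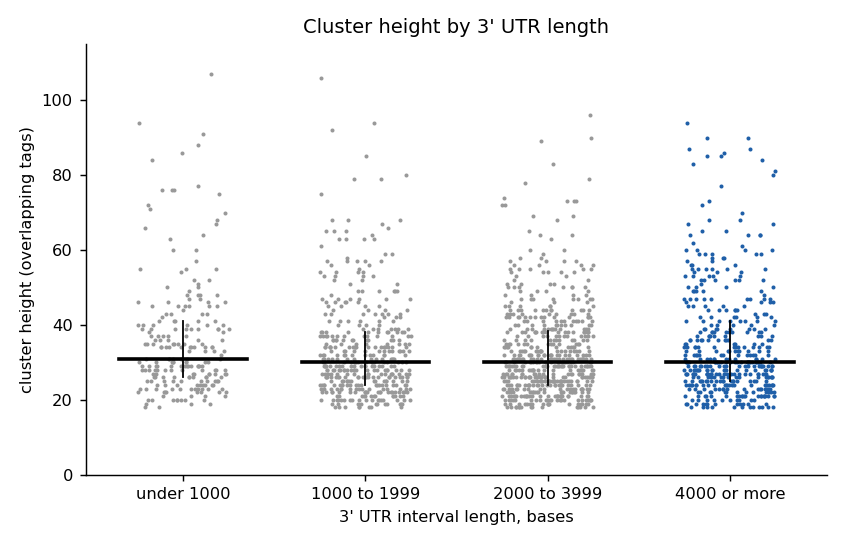
Height of each cluster (overlapping tags) by the length of its 3' UTR interval in bases; a point is a cluster, the horizontal bar the median and the vertical line the interquartile range. The medians of the 4 classes are 31, 30, 30 and 30, and all classes start at the lowest deposited height, 18.

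Among genes with long 3' UTRs, those with many clusters also had the taller ones. The highest cluster of a gene and its number of clusters had a Pearson's r of 0.722 and a Spearman's rho of 0.659 over 132 genes, a description in which the maximum of many clusters exceeds that of few by its nature. With the median height of a gene in place of its highest, these values were 0.329 and 0.344. Clusters of the 12 genes with 10 or more had a median height of 36, and those of the other 120 genes 29. Single clusters had a median of 26.5 and ranged from 18 to 64. The highest of these was in Tanc2, which encodes a postsynaptic scaffold protein: 64, with a fold of 15.3, at 94.4% of an interval of 5587 bases on chromosome 11 (cluster at 105790282 to 105790325).

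The highest cluster in any long 3' UTR belonged to a gene with few. Eif4g2, which encodes a translation initiation factor related to eIF4G, had 4 clusters with heights of 54, 58, 94 and 38, in this order from the interval start. All lay in the first 974.5 bases of a 4707-base interval on chromosome 7 (118211499 to 118216205, minus strand), so the last 3732.5 bases held none. The cluster of height 94 was at 118215679 to 118215933. St8sia2, a polysialyltransferase gene that modifies NCAM, showed a different layout. Its 5 clusters had heights of 41, 37, 72, 34 and 24 from start to end, and the tallest stood 3331.5 bases into an interval of 4059. Dcc, the netrin receptor gene, had 7 clusters whose heights were 67, 30, 59, 36, 42, 36 and 29 from start to end. Its tallest cluster began at the interval start and its last lay 2270 bases before the end of a 5358-base interval. Igfbp5, an IGF-binding protein gene, had 4 clusters and the tallest of these, 59 and 55, at 3923 and 4088.5 bases of 4312.

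Clusters of long 3' UTRs often stood close together, as did those of shorter ones. The 331 gaps between neighbours had a median of 188 bases (95% interval 144 to 238 by order statistics, interquartile range 50 to 588.5), and 84 of them (25.4%) were 50 bases or shorter. In the 12 genes with 10 or more clusters the median gap was 104 bases over 189 gaps, and in genes with 2 to 9 it was 427 over 142. More clusters in an interval leave less room between them, so the grouping by number itself favours this difference. The gaps in 3' UTRs under 4000 bases had a median of 120 bases, and 185 of 657 (28.2%) were 50 bases or shorter. There the interval itself limits the distance. Counting clusters up to 50 bases apart as one reduced the 463 to 379. The run that joined the most clusters was in Dcx, where 6 clusters formed a stretch of 770 bases (chromosome X, 140296624 to 140297393) around 1085 bases from the start. In Map1b, 5 formed a stretch of 836 bases, and in Sox11, 4 made 1004 bases, the widest joined run among these 3 genes. Joining reduced Dcx from 34 to 18, Sox11 from 25 to 15 and Map1b from 18 to 9, and Fzd3 only from 25 to 23.

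**Figure D4:**
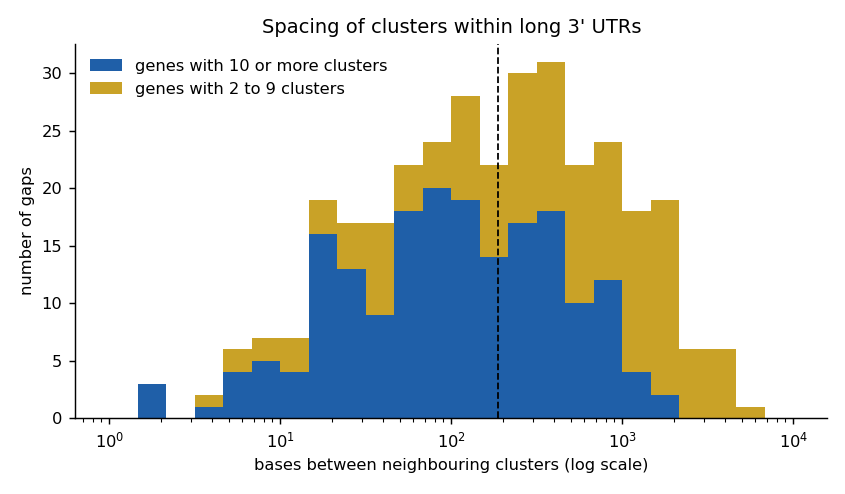
Number of gaps between neighbouring clusters of a gene by their length in bases (log scale), for genes with 10 or more clusters (blue) and with 2 to 9 (yellow, stacked on top). The dashed line is the median of 188 bases. Gaps of genes with 10 or more clusters lie mostly below 1000 bases, and the 17 gaps above 2000 bases all come from genes with 2 to 9. The grouping by number itself favours such a difference.

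The longest stretches without a cluster between neighbours were in genes of 2 to 9 clusters, where fewer clusters leave more room for them. Csrnp3, which encodes a nuclear protein rich in cysteine and serine, had 5167 bases between its cluster at 2378.5 and that at 7591.5 bases. Slc1a2 had 3620 bases between 992.5 and 4649.5. Lrp8, the gene of the reelin receptor ApoER2, had only 2 clusters, at 792 and 4365 bases of a 4529-base interval. Nfia, a nuclear factor I gene like Nfib, had 7 clusters in its first 2272 bases, with heights of 51 and 48 at 63.5 and 138 bases, and then 3273 bases without any before a pair at 5626 and 5737.

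Clusters lay along the whole length of long 3' UTRs. The median position was 47.7% of the way from the interval start to its end (95% interval 44.2 to 51.8), and 46.5% when each gene counted with its own median. When the interval was cut into 10 equal parts, each held between 35 and 57 clusters, and the median height of a part was between 27 and 35. Past the first 4000 bases lay 130 clusters of 52 genes (19 of them in Dcx), 28.1% of the 463 (95% interval 24.0 to 32.4), and 28.0% of the interval bases lie there. Their median height was 30.5, against 30 for the 333 clusters nearer the start. The first 500 bases held 42 clusters (9.07%) and the last 500 held 40 (8.64%), where 9.0% of the bases lie at either end. The tallest cluster of a gene was in the first 50% of the interval in 73 genes and in the rest in 59. For height against position, Pearson's r was -0.0155 over the 463 clusters, as a description of clusters that share transcripts.

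**Figure D5:**
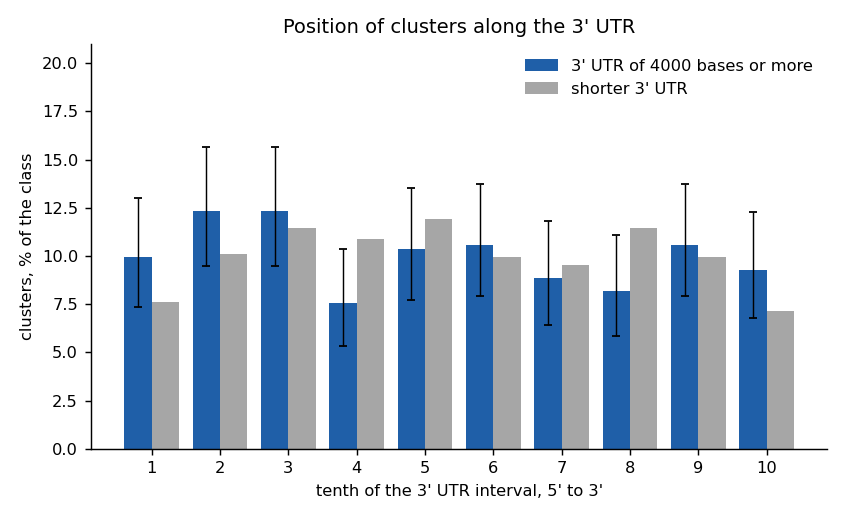
Share of clusters in each of 10 equal parts of the 3' UTR interval, from its start to its end, for long 3' UTRs (blue, with exact 95% binomial intervals that cover counting error only) and shorter ones (grey). The long 3' UTRs range from 7.56% in part 4 to 12.3% in parts 2 and 3, and the shorter ones from 7.15% to 11.9%.

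Single genes were less even than the pooled positions. Of the 46 genes with 3 or more clusters, 37 had clusters on both sides of the middle, 6 only in the first 50% and 3 only in the second. The distance from the first to the last midpoint of these genes had a median of 65.3% of the interval and ranged from 9.83% to 96.6%. Dcx (96.6%), Map1b (96.4%), Kif1b (94.5%), Fzd3 (92.8%) and Sox11 (90.2%) used nearly the full length. At the other end were the RNA-binding protein gene Serbp1 (9.83%, 3 clusters within the first 672 bases of 5343), the myosin gene Myo5a (17.2%), Eif4g2 (19.7%) and the insulin receptor gene Insr (20.9%). Serbp1, Myo5a and Insr were chosen after their values were seen. In 65 of the 132 genes the last cluster lay over 2000 bases before the interval end.

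By function, counts are given for gene lists that were written with earlier results of these data known. They stand beside the 132 of 729 genes (18.1%) with a 3' UTR cluster that have it in a long interval. For the genes of all functional lists together it was 48 of 202 (23.8%). The lists are partial, so a share describes the list and not the whole class of genes. Myo5a, Slc8a1, Slc4a8, Strbp, Serbp1, Taok1 and Tead1, described above, are in none of them. The counts were not tested. Among transcription factors, 9 of 28 had it in a long 3' UTR (32.1%), with 75 clusters and a median height of 33. Sox11, Tcf4 and Nfib were the highest, and others were Nfia (51), Zfhx3 (42, 6 clusters within 2053.5 to 3416 bases), Rfx3 (39), Bcl11b (33) and Zeb2 (22). The list was thus made of genes with many clusters and genes with few. Its median number per gene was 6, against 3 for the long 3' UTR genes of all lists together and 1.5 for all 132. The transcription factor genes Tead1, Bach2, Smad5 and Zbtb34, with 1 cluster each, are not in the list. Its median thus depends on which members were chosen. Bach2, Smad5 and Zbtb34 were picked after their values were seen.

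RNA-binding proteins had 9 of 23 in long 3' UTRs (39.1%), with 26 clusters in all, 12 of them in Celf2. The median per gene was 2, against 3 for the long 3' UTR genes of all lists together and 1.5 for all 132. Beyond Celf2 (57), the splicing factor gene Srsf1 reached 53 with 2 clusters at 1146.5 and 1438 bases, and the neuronal splicing regulator gene Rbfox2 reached 44 with 3. Elavl1, whose protein HuR binds AU-rich elements, had a single cluster of height 36, Qk 3 (highest 36), the Argonaute gene Ago1 1 (30), Nova1 2 (27), Hnrnpa3 1 (26) and Msi2 1 (22).

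Cytoskeletal genes had 4 of 32 in long 3' UTRs (12.5%). Those 4 held 57 clusters with a median height of 45. Next to Map1b and Dcx these were Dclk1, a kinase related to doublecortin (3 clusters, highest 44), and Abi2 of the WAVE actin regulator complex (2 clusters, highest 26). Motors and membrane trafficking had 2 of 18 (11.1%), Kif1b and the small GTPase gene Rab8b, which had 1 cluster of height 21. Of the translation factors only Eif4g2 was among them (1 of 5).

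Receptors of axon guidance and adhesion had 5 of 16 in long 3' UTRs (31.2%): Dcc, Fzd3, the semaphorin co-receptor gene Plxna2 (2 clusters of height 27 and 44), the adhesion gene Nfasc (1 of height 33) and the ephrin receptor gene Epha5 (1 of height 21). Guidance ligands and matrix had 2 of 14 (14.3%), Igfbp5 and the semaphorin gene Sema5a (1 cluster of height 22). Channels, pumps and transporters had 4 of 14 (28.6%), among them Xpr1, the glutamine transporter gene Slc38a1 (4 clusters, highest 46) and Slc1a2.

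Kinases, phosphatases and GTPase signalling had 8 of 35 (22.9%). The TGF-beta receptor gene Tgfbr1 led with 5 clusters and a height of 52. The IGF1 receptor gene Igf1r had 7 clusters, and the highest (47) had a fold of 14.8 and lay at 2819.5 bases of 7266. The kinase gene Gsk3b had 7 with a maximum of 39, and its last 3, at 4341.5, 4527 and 4638.5 bases, were of height 37, 38 and 39. The other members were Insr (3 clusters, highest 39), Gnaq (34), Srgap3 (30), Pak3 (28) and Mapk8 (26). The ubiquitin and chromatin list had 4 of 17 (23.5%), among them Kmt2a (listed as Mll1; 2 clusters, highest 33), Ube2k (31) and Nedd4l (3 clusters, highest 29). Over these 10 lists, 48 of the 132 genes were named, and they held 275 of the 463 clusters. List members named beyond the 3 highest were not picked by the naming rule.

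Of marker genes for the cell types a whole brain holds, Dcx alone had its clusters in a long 3' UTR. Of 8 neuronal markers 5 had a 3' UTR cluster. None of the 33 markers of progenitors, blood, vessels, microglia, meninges, choroid plexus or oligodendrocytes had one in a long 3' UTR, and 6 of them had one in a shorter 3' UTR. Those 6 are outside the set by the annotated length of their intervals. For markers with no cluster, fewer cells of a type and less of a transcript per cell cannot be told apart in whole tissue.

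Few genes with long 3' UTRs had clusters elsewhere in the transcript: 10 of 132 (7.58%, 95% interval 3.69 to 13.5) had a cluster in the coding sequence or 5' UTR, and 30 of the other 597 genes with a 3' UTR cluster (5.03%, 3.42 to 7.10). Eif4g2 and Map1b had 7 each in the coding sequence, with heights up to 48 and 41. Fzd3, Kif1b and Zeb2 had 2 each, Gsk3b, Nfia, Nfib and Kmt2a 1 each, and Tulp4 1 in its 5' UTR. In Peg10, an imprinted gene derived from a retrotransposon, 4 of its 9 clusters lay in a stretch that is 3' UTR in one listed transcript and coding sequence in another, so that they cannot be given to one region. Those 4 had heights of 27, 39, 46 and 45, and the other 5 went from 18 to 50. Zeb2, Tulp4 and Peg10 were chosen after their values were seen. The set spanned all 20 chromosomes of the list, and 153 of the 463 clusters lay on the plus strand. Chromosome X had 36 clusters in 3 genes, nearly all of them in Dcx.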

How the data were processed

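RNA crosslinked to IMP2 was sequenced from E14 mouse brain in 4 libraries. The submitters' processing notes name Bowtie, FastQC and mm9; details of peak calling, cut-offs, annotation release and pooling were not given in the sources used here. Height, as deposited by the authors, is a pileup signal in whole numbers, and the deposited fold is a ratio to a level the file header does not define. Lines (2865) were reduced to distinct clusters by position and strand, keeping the longest 3' UTR interval. Starts were made 1-based. Symbols came from a RefSeq table of GRCm38 through accession (1088 transcripts) or name (11), with no coordinates taken from it; 9 of the 132 genes took a new symbol. Intervals are 95%, exact binomial for shares and order-statistic for medians, and cover counting error only; clusters of a gene are not independent. No test was run, as no column holds a single library's values. Genes were named by a rule: most clusters (10), highest cluster (10), longest interval (6), highest and lowest density (6 each), coverage (5), longest gap (4), farthest cluster (4), genes next to the threshold (3 each side) and up to 3 of each gene list; a few genes that it picks are not reported here. Members and lists were chosen with earlier results of these data known. Functions were checked on simulated intervals. Python 3.11.15 with pandas 2.3.3 and scipy 1.17.1 was used.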

Additional observations from a re-analysis of the deposited data

How the results depend on the processing

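Of 88 recomputed values, 67 stayed within 1.5 times the count or within the 95% interval, and 21 moved. The 67 include all values with the smallest interval of a cluster, without Dcx, and with the midpoint inside the interval. Requiring the midpoint inside the interval left all 463 clusters, so that setting could not move any value. A threshold of 3000 bases gave 754 clusters in 226 genes (43.8% of 3' UTR clusters, 17.2% of them past 4000 bases, median covered share 2.15%), and 5000 bases gave 281 in 62 (16.3%, 37.7% past 4000 bases, 40.3% of genes with a single cluster), as the rule itself requires for the counts. Clusters taller than the median height left 218 in 66 genes, with median heights of 41.5 in long and 39 in other 3' UTRs and a median of 0.237 clusters per kb (0.249 with all clusters). A fold of 5 or more left 280 clusters, with median heights of 36 in both classes, 0.236 clusters per kb and a median gap of 251 bases. Joining clusters up to 50 bases apart raised the median gap to 329 bases. Depth is unknown, and the lowest height in the list is 18. No paired analysis was possible because the only table has no values for single libraries.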
